A study of Arabidopsis thaliana with 18 samples.

Results

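TRXF2 (AT5G16400), PRXIIF (AT3G06050) and SAPX (AT4G08390) are nuclear genes for redox proteins that work inside plastids and mitochondria. They were chosen by name through the array annotation, which gave each of them 1 probe set of its own. They are 3 of the 13286 loci that had such a probe set. The choice was made with earlier results of these arrays known. TRXF2 had been named for its difference between polysomal and non-polysomal RNA in wild type, PRXIIF is among the 10 largest such differences with a gene symbol in gcn2, and SAPX had been named for total RNA. Those 3 values are given as descriptions with no test.

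The arrays measured the aerial parts of Arabidopsis thaliana seedlings, 10 days old, of the Landsberg erecta line, which all groups share. One genotype was wild type and the other gcn2, which lacks normal function of GCN2, a kinase that acts on the initiation factor eIF2α under amino acid shortage; the labels name no gcn2 allele. All seedlings grew on medium with 1% sucrose under 16 h of light per day at 22 °C and were harvested 4 h into the light period, with no further treatment in the labels. From each genotype the 6 bottom fractions of a sucrose gradient were pooled as polysomal RNA, which carries several ribosomes per transcript, the 6 top fractions were pooled as non-polysomal RNA, and total RNA was measured as well, with 3 replicates of each. The labels do not say that replicates came from separately grown seedlings, and a p-value here reflects only how these samples varied, which may be technical.

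Thioredoxins are small proteins that pass electrons to disulfide bonds of other proteins. In chloroplasts in the light, f-type thioredoxins such as TRXF2 take electrons from ferredoxin through ferredoxin-thioredoxin reductase and switch on enzymes of carbon fixation. Peroxiredoxins reduce peroxides with a reactive cysteine and are recharged by thioredoxins or glutaredoxins; PRXIIF is the type II peroxiredoxin of plant mitochondria. Ascorbate peroxidases turn hydrogen peroxide into water with ascorbate as the electron donor, and SAPX is the soluble form of the chloroplast stroma, which is also found in mitochondria. All 3 proteins are translated on cytosolic ribosomes and imported into the organelles.

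All values are log2 signals of a probe set, and a difference of 1 is a factor of 2. Array medians lay between 5.05 and 5.18, so the arrays share a scale, and a difference between RNA types is measured against the bulk of probe sets rather than per cell. The members were well above the dim probe sets: TRXF2 exceeded 87.1 to 96.8% of the probe sets on the 18 arrays, PRXIIF 83.6 to 96.2% and SAPX 71.2 to 91.9%. Precision is limited by the 3 arrays per group. In total RNA, the leaf genes RCA (13.7 to 14.1) and PSAN (11.7 to 12.5) were bright, while the root hair expansins EXPA7 (3.38 to 3.87) and EXPA18 (4.21 to 4.55) lay below every array median; these were the measured 2 of 5 leaf and 2 of 6 root markers. Within groups, arrays correlated at 0.974 to 0.994. BioB and BioC controls moved with RNA type, at 9.06 ± 0.38 in wild-type polysomal, 9.99 ± 0.12 in wild-type non-polysomal and 8.95 ± 0.44 in wild-type total RNA, and at 9.31 ± 0.21, 10.16 ± 0.21 and 8.97 ± 0.32 in gcn2 (SD, n = 3 each). So did the excess of 3′ over 5′ signal of the Actin, GAPDH and ubiquitin controls, at 2.91 ± 0.16, 3.24 ± 0.31 and 2.28 ± 0.12 in wild type and 2.99 ± 0.28, 3.72 ± 0.42 and 2.22 ± 0.05 in gcn2, in the same order. The part of either in the results below was not tested.

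TRXF2, the thioredoxin of the chloroplast, was highest in polysomal RNA, intermediate in total RNA and lowest in non-polysomal RNA in both genotypes. In wild type its polysomal signals were 9.58, 9.74 and 9.47 in replicates 1 to 3, its total RNA signals were 8.41, 9.08 and 8.80, and its non-polysomal signals were 7.82, 7.92 and 7.64. In gcn2 they were 9.52, 9.47 and 9.38 in polysomal, 8.77, 8.98 and 8.51 in total and 7.77, 7.99 and 7.73 in non-polysomal RNA. No array of one RNA type overlapped with another RNA type, in either genotype, and within each RNA type the genotypes overlapped. Between the genotypes, fewer cells with a transcript and less transcript per cell cannot be told apart in a bulk sample.

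PRXIIF was also lowest in non-polysomal RNA, while its total RNA signals lay close to the polysomal ones in wild type. Its wild-type signals were 9.33, 9.003 and 9.13 in polysomal, 9.08, 8.71 and 8.995 in total and 7.71, 7.49 and 7.62 in non-polysomal RNA. In gcn2 they were 9.49, 9.47 and 9.17 in polysomal, 8.58, 8.79 and 8.92 in total and 7.50, 7.37 and 7.42 in non-polysomal RNA. In wild type the polysomal and total RNA arrays overlapped, and in gcn2 they did not.

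SAPX, the stromal peroxidase, had the largest SD of the 3 members in each wild-type group and in gcn2 non-polysomal RNA, though the smallest in gcn2 total RNA. Its wild-type signals were 7.37, 7.87 and 8.32 in polysomal, 8.36, 7.60 and 7.01 in total and 6.36, 6.86 and 7.11 in non-polysomal RNA. In gcn2 they were 7.96, 8.01 and 8.23 in polysomal, 8.47, 8.41 and 8.29 in total and 6.65, 7.14 and 7.33 in non-polysomal RNA. Within wild type, 1 total RNA array lay above every polysomal array and 1 lay below the highest non-polysomal array. The gcn2 total RNA arrays lay close together, at 8.39 ± 0.09 against 7.66 ± 0.68 in wild type (SD, n = 3 each).

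**Figure D1:**
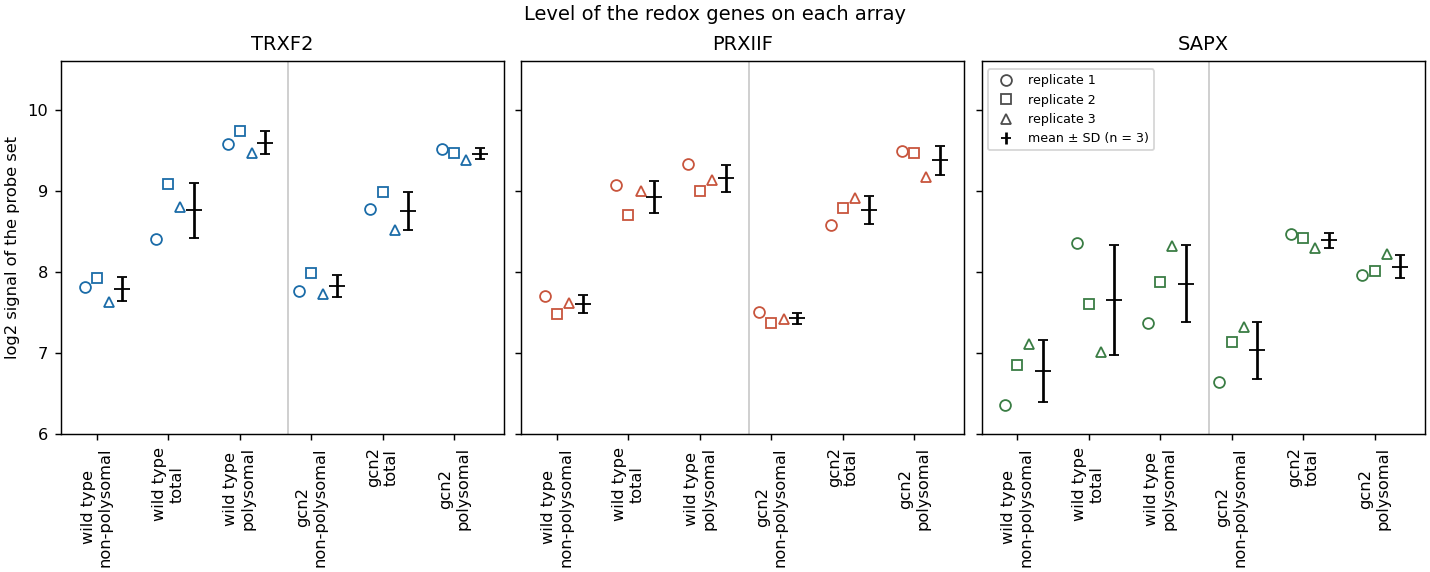
Log2 signal of TRXF2, PRXIIF and SAPX on each of the 18 arrays, by genotype and RNA type; the marker shape gives the replicate number and the black bar the mean ± SD (n = 3). TRXF2 steps down from polysomal through total to non-polysomal RNA in both genotypes, and SAPX in wild-type total RNA ranges from 7.01 to 8.36.

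In the order of group means, TRXF2 formed 3 pairs, each with wild type and gcn2 side by side. The polysomal pair differed by 0.14, the total RNA pair by 0.01 and the non-polysomal pair by 0.04, with overlapping arrays, while the steps between the pairs were 0.70 and 0.93 with no overlap of arrays. PRXIIF ran from gcn2 polysomal (9.38 ± 0.18) over wild-type polysomal (9.15 ± 0.17), wild-type total (8.93 ± 0.19) and gcn2 total RNA (8.76 ± 0.17), with neighbours that overlapped, and then dropped by 1.16 without overlap to the non-polysomal groups (7.61 ± 0.11 in wild type and 7.43 ± 0.07 in gcn2; SD, n = 3 each). SAPX was highest in gcn2 total RNA, followed by gcn2 polysomal (8.07 ± 0.14), wild-type polysomal (7.86 ± 0.47), wild-type total, gcn2 non-polysomal (7.04 ± 0.35) and wild-type non-polysomal RNA (6.78 ± 0.38; SD, n = 3 each). Only the highest SAPX group did not overlap with its neighbour, at a distance of 0.33.

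Polysome loading, as used here, is polysomal minus non-polysomal log2 signal, and it asks on which side of the gradient a transcript was relatively more abundant. All 3 members were higher in polysomal RNA in both genotypes, by factors of 2.04 to 3.85, and their polysomal and non-polysomal arrays did not overlap. For TRXF2 in wild type and PRXIIF in gcn2 the lack of overlap was a condition of being named. Of all probe sets, 20.0% in wild type and 19.3% in gcn2 lay higher in polysomal RNA without overlap.

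In wild type, TRXF2 differed by 1.80 (SE 0.16), the value for which it had been named, which placed it 115th among 22746 probe sets. PRXIIF rose by 1.55 (SE 0.14, n = 3 per fraction, limma adjusted p = 2.96e-07) and SAPX by 1.08 (SE 0.28, limma adjusted p = 0.00776). Thus 2 of the 2 members open to a test were called higher, where 15.2% of all probe sets were. Without the dim probe sets, those with a mean signal under the median of 5.15, 3299 of 11373 were called higher.

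In gcn2, whose arrays are separate from those of wild type, PRXIIF differed by 1.95 (SE 0.14), the value that puts it among the 10 largest with a symbol and 60th among all probe sets. TRXF2 rose by 1.63 (SE 0.16, n = 3 per fraction, limma adjusted p = 8.36e-07) and SAPX by 1.03 (SE 0.28, limma adjusted p = 0.0103). Here too 2 of 2 were called higher, against 15.1% of all probe sets. Without the dim probe sets 3303 of 11373 were called higher. The SAPX call was lost without gcn2 non-polysomal replicate 1 (0.83, SE 0.31, adjusted p = 0.0567). The gcn2 fractions are not a wholly independent repeat, since fraction arrays of equal replicate number deviated together and all groups share the model's estimate of spread.

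Arrays of the same replicate number showed how steady the differences were. For TRXF2 they were 1.76, 1.82 and 1.83 in wild type and 1.75, 1.48 and 1.66 in gcn2. For PRXIIF they were 1.62, 1.52 and 1.51 in wild type and 1.98, 2.1 and 1.75 in gcn2. For SAPX the differences in wild type were 1.01, 1.01 and 1.20, with an SD of 0.11 against SDs of 0.47 and 0.38 for its polysomal and non-polysomal levels. In gcn2 they were 1.32, 0.87 and 0.90. Every one of these differences was above 0, which follows from the lack of overlap between the fractions and adds nothing to it. For TRXF2 in wild type and PRXIIF in gcn2 the sign was also fixed by the choice of the gene.

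**Figure D2:**
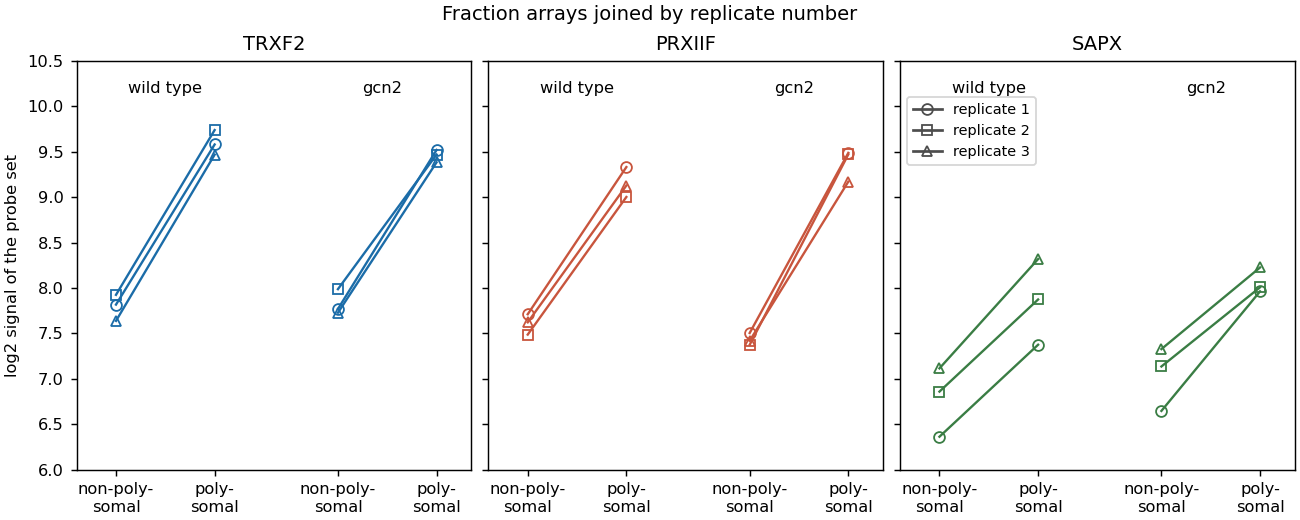
Log2 signal in non-polysomal and polysomal RNA for each member, with lines joining arrays of equal replicate number in wild type (left) and gcn2 (right). The lines of TRXF2 in wild type and of PRXIIF in gcn2 show the values for which these genes were named. Those of SAPX in wild type run nearly parallel, with differences of 1.01 to 1.20, although they start at levels between 6.36 and 7.11.

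The sizes above rest on the array-wide scale. With each array centred on its BioB and BioC controls, the median loading over the probe sets became 0.86 in wild type, where it had been −0.07, and 0.81 in gcn2, where it had been −0.04. In wild type 17065 probe sets were then called higher and 176 lower, in place of 3468 and 3022. In gcn2 these counts were 15607 and 243, in place of 3443 and 3049. Above the shifted median, the loading of TRXF2 was then 1.88 and 1.67, that of PRXIIF 1.62 and 1.98 and that of SAPX 1.15 and 1.06, in wild type and gcn2. The direction of the members was the same under this and under quantile scaling.

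Total RNA showed on which side of the gradient the members differed from the unfractionated level. In non-polysomal RNA all 3 fell below total RNA in both genotypes. The change of TRXF2 was −0.97 (SE 0.16, limma adjusted p = 9.72e-05) in wild type and −0.93 (SE 0.16, adjusted p = 1.71e-04) in gcn2. That of PRXIIF was −1.32 (SE 0.14, limma adjusted p = 6.23e-07) and −1.33 (SE 0.14, adjusted p = 6.93e-07). That of SAPX was −0.88 (SE 0.28, limma adjusted p = 0.0197) and −1.36 (SE 0.28, adjusted p = 9.78e-04). Of all probe sets, 19.7% in wild type and 18.7% in gcn2 were called lower in non-polysomal RNA. Without the dim probe sets, 3915 of 11373 in wild type and 3832 of 11373 in gcn2 were called lower. In 2 of the 3 members in wild type and in all 3 in gcn2 the non-polysomal arrays lay below those of total RNA without overlap, as did 20.8% and 22.7% of all probe sets. With the control centring the median over all probe sets in these comparisons was −0.95 and −1.10, where it had been 0.09 and 0.08. The SAPX call in wild type, where the arrays of the groups overlapped, was lost without non-polysomal replicate 1 (−0.67, adjusted p = 0.102), without total RNA replicate 1 (−0.53, adjusted p = 0.144) and in a fit of only the 6 arrays compared (adjusted p = 0.0676).

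In polysomal against total RNA not all members were called, and differences between the members were not tested. TRXF2 rose above total RNA by 0.83 (SE 0.16, n = 3 per group, limma adjusted p = 0.00141) in wild type and by 0.70 (SE 0.16, adjusted p = 0.00493) in gcn2. PRXIIF stood at 0.23 (SE 0.14, 95% interval −0.06 to 0.52, limma adjusted p = 0.318) in wild type while in gcn2 it rose by 0.61 (SE 0.14, adjusted p = 0.00447). SAPX stood at 0.20 (SE 0.28, 95% interval −0.40 to 0.80, limma adjusted p = 0.752) in wild type and at −0.33 (SE 0.28, 95% interval −0.92 to 0.27, adjusted p = 0.507) in gcn2. These SEs pool the spread of all groups. The SAPX SDs in polysomal and total RNA were 0.47 and 0.68 in wild type, and 0.14 and 0.09 in gcn2. The wild-type interval thus does not reflect the wider spread of the arrays compared. The calls of 1 of 3 members in wild type and 2 of 3 in gcn2 stand against 8.32% and 8.81% of all probe sets called higher, and 9.56% and 10.3% called lower. Without the dim probe sets, 1801 of 11373 in wild type and 1844 in gcn2 were called higher, and 2016 and 2172 lower. The same 1 and 2 members lay above total RNA without overlap, as did 15.4% and 19.5% of all probe sets, and in gcn2 SAPX lay below it without overlap, as did 19.0% of all probe sets. Whether the PRXIIF values of the genotypes differ was not tested. All 3 of these calls ended when arrays were centred on the BioB and BioC controls (adjusted p = 0.235 and 0.519 for TRXF2 and 0.602 for PRXIIF), with the same sign; the median over all probe sets was then −0.10 in wild type and −0.30 in gcn2. The wild-type values of TRXF2, the gcn2 values of PRXIIF and the values of SAPX in both genotypes against total RNA share arrays with the comparison for which that gene had been named, so their tests are not independent of the choice. The same holds for TRXF2 and PRXIIF between the genotypes within a fraction.

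**Figure D3:**
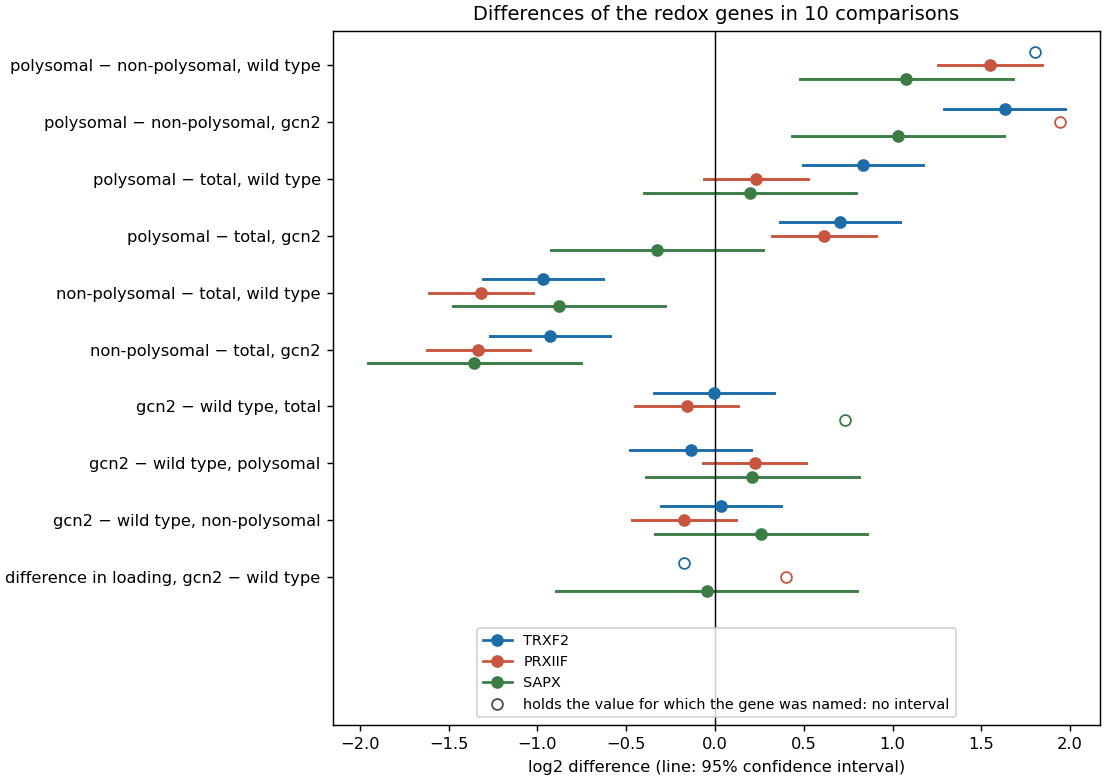
Log2 differences of the 3 members in the 10 comparisons, with 95% confidence intervals from limma; open circles, without an interval, mark values that are or contain the one for which a gene had been named. The 4 intervals drawn for polysomal minus non-polysomal RNA lie above 0 and the 6 for non-polysomal minus total RNA below 0, while in polysomal minus total RNA those of TRXF2 in both genotypes and of PRXIIF in gcn2 keep clear of 0.

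The comparison of gcn2 with wild type asked whether loss of the kinase went with another transcript level. No member open to a test was called. TRXF2 stood at −0.01 (SE 0.16, 95% interval −0.35 to 0.33) in total RNA, at −0.14 (−0.48 to 0.20) in polysomal and at 0.04 (−0.30 to 0.37) in non-polysomal RNA, with limma adjusted p-values of 1.00, 0.981 and 0.965. PRXIIF stood at −0.16 (SE 0.14, 95% interval −0.45 to 0.13), 0.22 (−0.07 to 0.51) and −0.17 (−0.47 to 0.12) in the same order, with limma adjusted p-values of 1.00, 0.942 and 0.695. SAPX was higher in gcn2 total RNA by 0.73 (SE 0.28), the value for which it had been named, and stood at 0.21 (SE 0.28, 95% interval −0.39 to 0.81) in polysomal and 0.26 (−0.34 to 0.86) in non-polysomal RNA, with limma adjusted p-values of 0.981 and 0.797. The intervals do not use the pairing of fraction arrays by replicate number. Taken by number, the SAPX differences had an SD of 0.35 in polysomal and 0.04 in non-polysomal RNA. At an unadjusted p under 0.05 the count was likewise 0 of 2 tested members in total RNA and 0 of 3 in each fraction, and in limma 0.0352% of all probe sets were called in total, 0.022% in polysomal and 0.0791% in non-polysomal RNA.

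The SAPX difference in total RNA moved with single wild-type arrays. The 3 gcn2 arrays (8.29 to 8.47) lay above 2 of the 3 wild-type arrays, and the highest wild-type array (8.36) lay within their range. Without wild-type total RNA replicate 1 the difference was 1.08, and without replicate 3 it was 0.41.

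The loading itself was compared between the genotypes. In gcn2 minus wild type, TRXF2 stood at −0.17 (SE 0.23) and PRXIIF at 0.40 (SE 0.20). These contain the values for which the genes were named, in wild type and in gcn2, and are given with no test. SAPX stood at −0.05 (SE 0.40, 95% interval −0.89 to 0.80, limma adjusted p = 0.998) and was not called, where 0.0044% of all probe sets were. For PRXIIF, gcn2 minus wild type by replicate number was 0.16, 0.47 and 0.04 in polysomal RNA and −0.21, −0.11 and −0.20 in non-polysomal RNA. The choice of PRXIIF by its gcn2 loading favoured these signs, since the same gcn2 arrays enter them. For TRXF2, named by its wild-type arrays, the values were −0.06, −0.27 and −0.08 in polysomal and −0.05, 0.06 and 0.09 in non-polysomal RNA. Those of SAPX were 0.59, 0.13 and −0.09 in polysomal and 0.28, 0.28 and 0.21 in non-polysomal RNA.

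The other genes of these redox systems were taken from lists of 93 loci, of which 90 are not members. Only loci with a probe set annotated to them alone count as measured, which left 25 of the 90. In the annotation used, 8730 of the 22746 probe sets were not listed with a gene, and 503 had several genes. A locus that does not count as measured may therefore still have a probe set on the array, which was not tested. In wild-type loading 13 of the 25 rose and 1 fell, with a median of 0.47, where 15.2% of all probe sets rose, 13.3% fell and the median was −0.07. In gcn2, where 15.1% of all probe sets rose and 13.4% fell, 12 rose and 0 fell (limma; 15 reached an unadjusted p under 0.05, counting both directions), with a median of 0.47 against −0.04. Without the dim probe sets 13 of 24 rose and 1 fell in wild type, where 3299 of 11373 probe sets rose and 2023 fell. In gcn2 13 of 24 then rose and 0 fell, where 3303 probe sets rose and 2221 fell. The medians were then 0.49 in both genotypes, against 0.11 in wild type and 0.08 in gcn2. Under quantile scaling 11 rose and 1 fell in wild type and 10 rose and 1 fell in gcn2. With the control centring 23 and 24 rose and none fell. The medians were 0.30 and 0.21 under quantile scaling and 1.41 and 1.32 with the control centring, in wild type and gcn2. That centring turned the negative values below for TRXX, TRXY1, FTRB, TRXO2, PRXIIA and GLDH positive, and quantile scaling turned the sign of GME, VTC4 and TRXY2 in both genotypes, of TRXX in gcn2 and of PRXIIA in wild type.

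Among plastid thioredoxins and their reductases, 7 of 15 were measured. Besides TRXF2, NTRC, a reductase with a thioredoxin domain of its own that uses NADPH, rose by 0.95 (SE 0.19) in wild type and 0.88 (SE 0.19) in gcn2. The thioredoxins TRXM2 (0.41 and 0.42), TRXY2 (0.17 and 0.18) and TRXY1 (−0.16 and 0.10) and FTRB (−0.07 in both), the catalytic subunit of ferredoxin-thioredoxin reductase, were not called. TRXX fell by 0.55 (SE 0.15, limma adjusted p = 0.0110) in wild type, a call that was lost without wild-type non-polysomal replicate 2, and stood at 0.05 in gcn2. The difference in TRXX loading between the genotypes was 0.59 (SE 0.22, limma adjusted p = 0.910).

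Of the cytosolic and mitochondrial thioredoxins and reductases 2 of 12 were measured. TRXO1, a thioredoxin of plant mitochondria, rose by 1.41 (SE 0.14) in wild type and 1.27 (SE 0.14) in gcn2, and the related TRXO2 stood at −0.38 and −0.46 (SE 0.18 each). Among the peroxiredoxins and sulfiredoxin, 5 of 11 were measured. The plastid peroxiredoxins PRXIIE (1.99 and 2.1, SE 0.17 each) and 2CPA (1.85 and 1.83, SE 0.21 each) rose in wild type and gcn2, as did SRX, the sulfiredoxin that repairs overoxidized peroxiredoxins (0.64 and 0.78, SE 0.15 each). PRXIIA, at −0.07 and −0.21, had signals near or below the lower quartiles of the arrays (3.21 to 3.52) and was not called. PRXIIF, whose gcn2 value led to its being named, belongs to the same list.

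Of the 8 ascorbate peroxidases only SAPX and TAPX were measured. TAPX, the form bound to the thylakoid membrane, stood at 0.42 (SE 0.20, limma adjusted p = 0.129) in wild type and 0.33 (SE 0.20, adjusted p = 0.243) in gcn2, below the 1.08 and 1.03 of SAPX, and the difference between these genes was not tested. In recycling of ascorbate and glutathione, 3 of 10 were measured. The glutathione reductases GR2, of the organelles (1.11 and 0.86, SE 0.19 each), and GR1, of the cytosol and peroxisomes (0.57 and 0.80, SE 0.15 each), rose in both genotypes. MDAR2, a monodehydroascorbate reductase, stood at 0.39 in wild type; in gcn2 it rose by 0.57 (SE 0.17), a call lost without gcn2 polysomal replicate 2 or 3. The 3 measured of 8 genes for the synthesis of ascorbate and glutathione, all of the ascorbate route, were called in neither genotype, with VTC4 at 0.04 and 0.14, GME at 0.09 and 0.13 and GLDH at −0.18 and 0.13.

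The plastid glutaredoxin GRXS12, 1 of 5 listed, rose by 1.76 (SE 0.18) in wild type and 1.63 (SE 0.18) in gcn2. Of the plastid enzymes under thioredoxin control 5 of 9 were measured, and 5 rose in wild type and 3 in gcn2. RCA, the activase of Rubisco, rose by 0.74 and 0.81 (SE 0.16 each), ATPC1, the gamma subunit of the plastid ATP synthase, by 0.65 and 0.50 (SE 0.14 each) and SBPASE, of the Calvin-Benson cycle, by 0.51 and 0.53 (SE 0.18 each). PRK, of the same cycle, rose by 0.86 (SE 0.24) in wild type and stood at 0.47 in gcn2, and NADP-MDH, the plastid malate dehydrogenase, rose by 0.47 (SE 0.16) and stood at 0.42. The calls of SBPASE in both genotypes and of NADP-MDH in wild type were lost in a fit of only the 6 arrays compared, under quantile scaling and without any 1 of several single arrays (4 of the 6 for NADP-MDH, and 2 in wild type and 4 in gcn2 for SBPASE). The call of ATPC1 in gcn2 was lost under quantile scaling, and that of PRK without wild-type polysomal replicate 1 or non-polysomal replicate 3. By the array annotation used, superoxide dismutases and glutathione peroxidases had 0 measured members of 7 and 8.

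**Figure D4:**
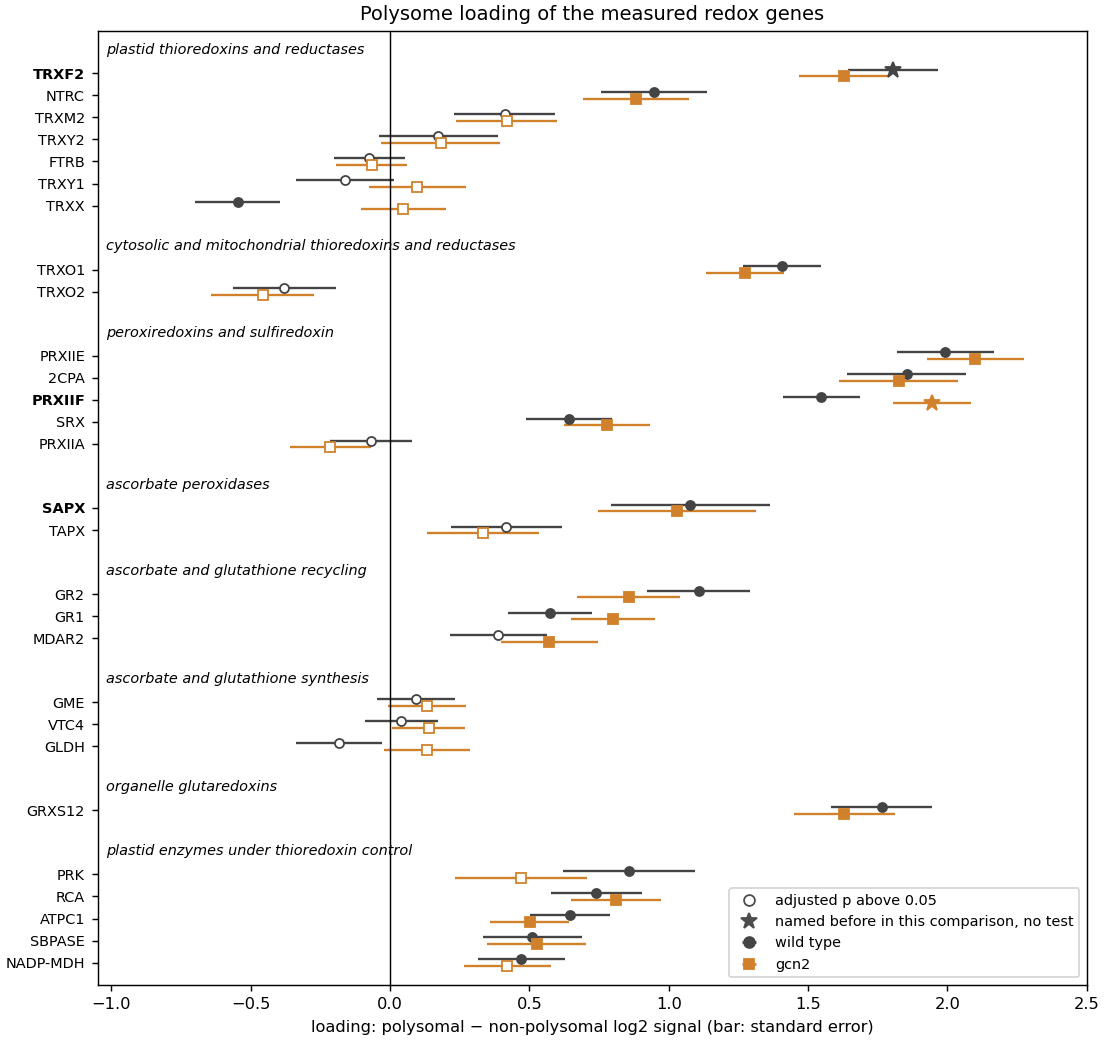
Polysome loading of the 3 members and the 25 other measured redox genes (polysomal minus non-polysomal log2 signal with its standard error) in wild type (grey) and gcn2 (orange), grouped by list; filled symbols passed an adjusted p of 0.05 in limma and stars mark values by which a member had been named. Loading above 1 in both genotypes is seen for TRXF2, TRXO1, PRXIIE, 2CPA, PRXIIF, SAPX and GRXS12, and the measured genes of ascorbate synthesis lie near 0.

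None of the 25 was called between the genotypes in limma. At an unadjusted p under 0.05 there were 0 in total, 1 in polysomal and 3 in non-polysomal RNA. Against total RNA, 16 of the 25 fell in non-polysomal RNA in each genotype and 5 rose in wild type and 3 in gcn2, where 19.7% and 18.7% of all probe sets fell and 19.7% and 17.8% rose, with medians of −0.93 and −0.92 against 0.09 and 0.08 for all probe sets. Without the dim probe sets, 3915 of 11373 probe sets fell and 2802 rose in wild type, with a median of −0.10. In gcn2 3832 then fell and 2559 rose, with a median of −0.11. In polysomal against total RNA 3 of the 25 rose and 7 fell in wild type, where 8.32% of all probe sets rose and 9.56% fell. In gcn2 4 rose and 6 fell, where 8.81% rose and 10.3% fell. The medians of the 25 were −0.18 in wild type and −0.10 in gcn2, against 0.005 and 0.03 for all probe sets. Of the 5 measured plastid enzymes under thioredoxin control, 4 fell below total RNA in polysomal RNA in each genotype and 0 rose.

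The transcripts most like each member over the 18 arrays were sought among 1551 probe sets with exactly 1 gene and a symbol, as a description, since the arrays of a group share their RNA type. For TRXF2 they were ISU1 (Pearson r = 0.969), a scaffold protein for iron-sulfur clusters in mitochondria, RD2 (0.954) and TO1 (0.950), which is the TRXO1 described above. For PRXIIF they were FRO1 (0.973), a subunit of mitochondrial complex I, ISU1 (0.972) and Y14 (0.965), a protein of the exon junction complex. For SAPX the values were lower, with MOL1 (0.904), a receptor-like kinase, SIR (0.886), the plastid sulfite reductase, and GR1 (0.884). Among the members, TRXF2 and PRXIIF correlated at 0.903, PRXIIF and SAPX at 0.697 and TRXF2 and SAPX at 0.618 over the same 18 arrays.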

How the data were processed

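RNA from 18 samples was hybridized to Affymetrix ATH1 arrays. The deposited table holds log2 values per probe set that the authors computed. Per the submitters' processing notes, RMA, affy and MAS5 were involved, without their roles or versions, so how background was handled and probes were summarized is not given. Of 22810 probe sets, 64 controls were left out. Of the 22746 tested, 13513 had exactly 1 gene in the platform annotation, and 13436 of these were matched by gene number to RefSeq names (assembly TAIR10.1). Each comparison was a contrast in 1 group-means model of all 18 arrays in limma 3.58.1 (R 4.3.3), with 12 residual degrees of freedom, no filter and Benjamini-Hochberg adjustment over 22746 probe sets at 0.05. The limma step was tested on simulated data. No 2 of the 153 array pairs held identical values.

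Equal replicate numbers in the titles paired the fraction arrays: for each of the 6 pairs of fraction groups, deviations from group means correlated above the limit of 0.1 for every number (0.184 to 0.588). With total RNA, 3 of 9 pairs of groups met that limit. The members, gene lists and alternatives were chosen with earlier results of these data known. A member was given no test in a comparison in which it had been named before. The naming rule took the 10 largest called changes per direction with a symbol and with arrays that did not overlap between the groups. Where fewer than 3 met these conditions, the 5 smallest p-values were taken as well. SAPX in total RNA was not named by this rule, since it was not called and its arrays overlapped. It counts as named because earlier results of these data had given a value for that comparison. The genes named beside the members are the measured genes of 10 lists and, for each member, the 3 named probe sets most like it. GCN2 was not analysed here.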

Additional observations from a re-analysis of the deposited data

How the results depend on the processing

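Over all alternatives, 393 values of the 3 members were recomputed, and 382 stayed on their side of the threshold, or moved by less than the spread between replicates where no test was given. None of the 13 called values changed sign. The 14 others include the loading differences of TRXF2 and PRXIIF between the genotypes, given with no test, which kept their sign. Of these 14 values, 6 changed sign under at least 1 alternative. These were gcn2 minus wild type of TRXF2 in total (−0.18 to 0.15) and non-polysomal RNA (−0.13 to 0.10), of PRXIIF (−0.03 to 0.33) and SAPX (−0.04 to 0.44) in polysomal RNA and of the SAPX loading (−0.29 to 0.18), and SAPX in wild-type polysomal against total RNA (−0.13 to 0.55). With quantile normalization the loading of TRXF2 in wild type was 1.64 and that of PRXIIF in gcn2 1.76; centred on BioB and BioC these were 2.74 and 2.79. The same centring ended the calls in polysomal against total RNA of TRXF2 in wild type (0.73, from 0.83) and gcn2 (0.37, from 0.70) and of PRXIIF in gcn2 (0.28, from 0.61). It made these values smaller and also carries the array-to-array spread of the controls into every gene. The part of each in the lost calls was not tested. In the fit of only the arrays compared, SAPX in wild-type non-polysomal against total RNA was −0.88 with an adjusted p of 0.0676; fewer arrays estimate the spread there. Leaving out 1 array at a time, this value ran from −1.20 to −0.53 and the SAPX loading in gcn2 from 0.83 to 1.18. The replicate number as a block changed no member's call, on 18 or on 12 arrays; SAPX loading in wild type stayed at 1.08, with an SE of 0.28 on 18 and 0.14 on the 12 fraction arrays.

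Counts over all probe sets moved more. In total RNA 8 were called between the genotypes, with 3 to 15 over the alternatives. In polysomal RNA it was 5, with 2 to 127, and in non-polysomal RNA 18, with 10 to 429; the highest counts came from the block on 12 arrays, and without wild-type non-polysomal replicate 1 the latter was 110. The difference in loading had 1, with 0 to 3. Loading had 6490 calls in wild type and 6492 in gcn2, with 17241 and 15850 after the control centring. Polysomal against total RNA had 4068 in wild type (821 after that centring, 2449 without wild-type polysomal replicate 2) and 4355 in gcn2 (1957 and, without gcn2 polysomal replicate 1, 2686). Non-polysomal against total RNA went from 8973 (4485 higher, 4488 lower) to 18063 (255 higher, 17808 lower) and from 8297 (4038 higher, 4259 lower) to 19787 (136 higher, 19651 lower).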
